A study of Mus musculus with 6 samples.

Results

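Aminoacyl-tRNA synthetases join each amino acid to its own tRNA and so supply the ribosome with charged tRNAs. Mammalian cells hold largely separate sets for the cytosol and for the mitochondria, both encoded in the nucleus, although the genes Gars and Kars each serve both. Several cytosolic enzymes sit together in a large multisynthetase complex. When charged tRNA runs short, the kinase GCN2 phosphorylates the initiation factor eIF2, and translation of the transcription factor ATF4 rises. Many cytosolic synthetase genes are known as ATF4 targets, together with genes of amino acid synthesis and transport.

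The genes described here are the 35 synthetase genes that the platform's gene table names by a probe set of their own, 19 of them cytosolic and 16 mitochondrial, of 19938 genes named in this way. The rule takes gene symbols and uses no measured value, but the set was picked with earlier results of these data known. Mitochondrial enzymes are those whose symbol ends in 2. Where a gene had several probe sets, as Iars did, the probe set with the highest mean was taken. The alanine enzyme Aars shares its probe set with Exosc6 and is left out, and the cytosolic aspartate enzyme Dars was not analysed here. Of the 35 genes, 34 lay at or above the median level of the probe sets tested. The exception was the threonine enzyme Tarsl2, counted as cytosolic, with values between 3.11 and 3.24 on the log2 scale.

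RNA came from C1498, a mouse cell line of C57BL/6J background labelled as acute myeloid leukemia. Cells received PJ34, a small-molecule inhibitor of PARP-1, at 20 μM for 48 h, or PBS for the same time, with 3 Affymetrix Mouse Gene 1.0 ST arrays per group. The comparison asks how inhibition of PARP-1 changes gene expression in these cells. Each group was run in triplicate. The study describes its array experiments as independent, but the labels do not say whether the arrays came from separate cultures, so p-values measure only the spread between these arrays, which may be technical. The deposited log2 values had medians of 4.41 to 4.46 on the 6 arrays, and any 2 arrays correlated at 0.992 to 0.995 in the same group and at 0.992 to 0.994 across groups. Of 14 myeloid markers, 3 (Cebpa, Fcgr1 and Cd68) lay at or above the median level and 11 lay below it, among them Mpo, Elane, Csf1r and Spi1. All 3 general leukocyte markers lay at or above it. So did 3 of 9 markers of T and NK cells, with means of 10.47 for Cd3e, 11.08 for Cd3g and 4.76 for Cd3d. Cd3d was thus just above the median of 4.72, and Cd2, Cd5, Thy1, Nkg7, Ncr1 and Klrb1c lay below it. None of 4 B cell or 2 erythroid markers lay at or above the median level, while 2 of 4 fibroblast markers did (Col1a1 and Col1a2). Levels of different probe sets are not strictly comparable and carry no detection calls, so these counts only describe where the markers lie. Of the myeloid markers, 7 had estimates below 0 and 7 above (median log2 fold change -0.01). Fcgr1 and Cd68 were higher with PJ34 (0.63 and 0.51), and at an unadjusted p below 0.05 there were 3 higher and 1 lower, Elane (-0.20). No marker of the T and NK, B, erythroid or fibroblast lists passed in limma, with unadjusted p below 0.05 for 2 T and NK markers, both higher, and for 1 fibroblast marker, lower. Of these markers, Elane, Itgam, Cd2 and Pdgfra lie below the median level. At a limma adjusted p under 0.05, as for Fcgr1 and Cd68, 1.72% of all probe sets were higher. At an unadjusted p below 0.05, 7.74% were lower and 8.95% higher. Whether these markers have a part in the synthetase values was not tested.

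Promoter sequences of the enzymes that the results turn on are given first. The table of RefSeq promoters (GRCm38.p6) used here covered 26 of the 35 genes, 12 cytosolic and 14 mitochondrial, and Lars is not among them. The sequences are printed 5′ to 3′ in the direction of transcription, and capitals mark a CCAAT box, ATTGG on the other strand. Shown are the glutamine enzyme Qars (chr9:108507755-108508004, plus strand) and the mitochondrial cysteine enzyme Cars2 (chr8:11550782-11551021, minus strand), which both fell with PJ34. The stretch of Qars ends at the base before its start, and that of Cars2 stops at the edge of its gene.
Qars: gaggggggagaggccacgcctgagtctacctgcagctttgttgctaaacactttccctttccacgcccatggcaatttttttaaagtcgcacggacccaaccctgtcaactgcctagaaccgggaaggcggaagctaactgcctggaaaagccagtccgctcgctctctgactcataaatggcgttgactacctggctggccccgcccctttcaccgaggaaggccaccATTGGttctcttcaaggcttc
Cars2: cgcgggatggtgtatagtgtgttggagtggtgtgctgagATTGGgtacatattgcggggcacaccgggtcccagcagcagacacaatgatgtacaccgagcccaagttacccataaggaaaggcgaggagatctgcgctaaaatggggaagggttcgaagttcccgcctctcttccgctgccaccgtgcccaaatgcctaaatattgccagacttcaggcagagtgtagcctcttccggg

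The core TGATGNAA of the C/EBP-ATF response element, to which ATF4 binds with C/EBP partners, was searched on both strands of the 250 bases before each start. It was present in 2 of the 12 cytosolic promoters, those of the glycine enzyme Gars and the threonine enzyme Tars, in 0 of the 14 mitochondrial promoters and in 3.53% of 27025 promoters in RefSeq. The last 60 bases before the start are shown for both (Gars, chr6:55037941-55038000, plus strand; Tars, chr15:11399659-11399718, minus strand). The capitals near the start are the reverse complement of the core, and the ATTGG of Tars is a CCAAT box.
Gars: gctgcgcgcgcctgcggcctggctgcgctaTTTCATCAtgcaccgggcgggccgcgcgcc
Tars: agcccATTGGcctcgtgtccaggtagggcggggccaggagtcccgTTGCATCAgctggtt

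CCAAT was present, on either strand, in 6 of the 12 cytosolic and 5 of the 14 mitochondrial promoters, against 34.5% of all promoters. The cyclic AMP response element TGACGTCA was in none of the 26 and in 1.62% of all. The palindromic motif of the factor NRF1 was in those of Kars and Tars and in 3.86% of all. These matches describe the letters of the window and no binding was measured.

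With PJ34, 3 of the 35 synthetase genes were lower and none was higher at an adjusted p under 0.05 from limma, where 1.35% of all 23412 probe sets tested were lower and 1.72% higher. At an unadjusted p below 0.05, 13 of the 35 were lower and 1, the mitochondrial tryptophan enzyme Wars2, was higher, where 7.74% of all probe sets were lower and 8.95% higher. The median log2 fold change of the cytosolic set was -0.20 over 19 genes, beside 0.00288 over all probe sets tested, and 17 of the 19 estimates were below 0, as were 49.0% of all. In bulk RNA, fewer cells of a type and less RNA per cell cannot be told apart. Without Gars and Kars, which serve both compartments, the median of the other 17 was -0.21. The mitochondrial set had a median of 0.02 over 16 genes, with 7 estimates below 0 and 9 above, and this median changed sign when single arrays were left out (-0.03 to 0.03). All estimates were modest, between a log2 fold change of -0.62 and one of 0.21.

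**Figure D1:**
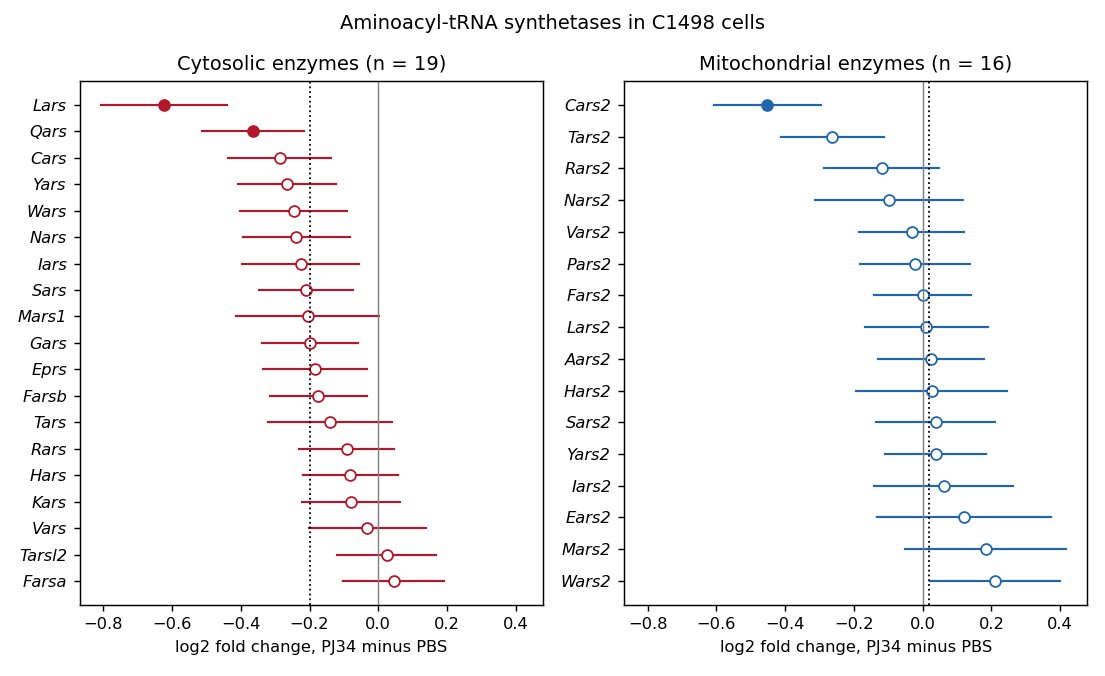
The horizontal axis gives the log2 fold change, PJ34 minus PBS, for every cytosolic (red) and mitochondrial (blue) synthetase, with 95% confidence intervals from limma and n = 3 arrays per group. Filled points passed at an adjusted p under 0.05, and dotted lines mark the medians of -0.20 and 0.02. Lars, Qars and Cars2 are the filled points.

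Lars, the cytosolic leucine enzyme and a member of the multisynthetase complex (chr18:42202298-42262237, GRCm38.p6), fell the most. Its log2 values were 8.63, 8.69 and 8.61 on the PBS arrays and 8.03, 8.15 and 7.88 on the PJ34 arrays. The groups were far apart, and the PJ34 arrays differed among themselves more (SD 0.137) than the PBS arrays (SD 0.0442). PJ34 cells had 0.649 times the PBS level (95% confidence interval 0.571 to 0.738), which is -0.62 on the log2 scale (SE 0.081), and passed limma with an adjusted p of 0.00737. Whichever of the 6 arrays was omitted, Lars still passed, with an adjusted p of 0.0115 to 0.0377. Besides charging leucine tRNA, this enzyme is known as a leucine sensor for the kinase mTORC1.

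Qars, the glutamine enzyme of the same complex (chr9:108508005-108515941), fell by 0.36 on the log2 scale (SE 0.066, adjusted p = 0.0241 from limma). It read 9.30, 9.45 and 9.40 with PBS and 9.05, 9.02 and 8.99 with PJ34. The 3 PJ34 values lay close together and all below the lowest PBS value. Of the fits that left out 1 array, Qars passed only in that without PBS replicate 1 (adjusted p = 0.0456) and not in the other 5 (0.0511 to 0.114). Its promoter, printed above, has a CCAAT box near the start.

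The number of synthetases called depended on the fit. When limma was given an intensity trend and robust variances, 13 were lower, where 3.93% of all probe sets were lower and 4.31% higher. Without probe sets below the median level, 10 were lower (7.18% of all lower, 7.94% higher). With all deposited probe sets tested, Lars alone was lower (0.214% of all). The methods' t-test called none after adjustment (0.278% of all), and a block for the replicate number left Lars and Cars2 (0.611% of all). The share of all probe sets that were lower was 0.585%, 0.355% and 0.402% without PBS replicates 1, 2 and 3, and 0.466%, 1.37% and 0.487% without PJ34 replicates 1, 2 and 3.

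Cars2, which charges cysteine tRNA in mitochondria (chr8:11514017-11550781), was the mitochondrial enzyme that fell. Its log2 values were 7.11, 7.22 and 7.14 on the PBS arrays and 6.74, 6.76 and 6.62 on the PJ34 arrays. The groups were clearly separate, and the lowest value was that of PJ34 replicate 3. The ratio was 0.731 (0.656 to 0.814), or -0.45 on the log2 scale (SE 0.068, limma adjusted p = 0.0122). The call was lost without PBS replicate 2 (adjusted p = 0.0654) or PBS replicate 3 (0.0542), and was kept in the other 4 such fits.

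**Figure D2:**
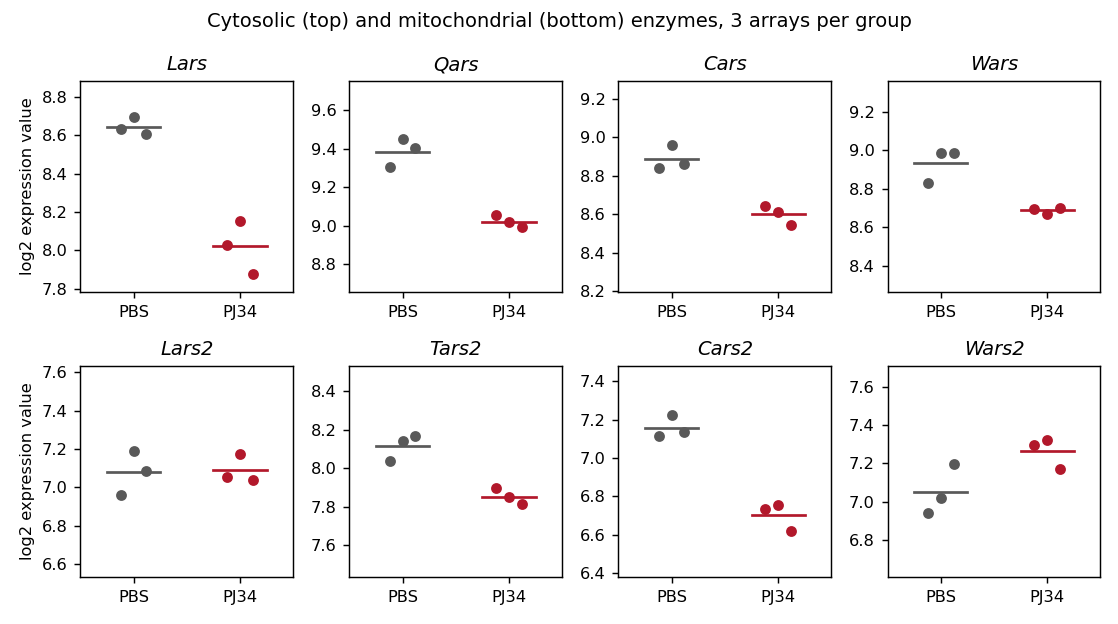
Log2 expression value (vertical axis, equal span in all panels) of 3 arrays with PBS (grey) and 3 with PJ34 (red), horizontal lines giving group means, for 4 cytosolic (top) and 4 mitochondrial (bottom) enzymes. The groups are separate for Lars, Qars, Cars, Wars, Tars2 and Cars2 and overlap for Lars2 and Wars2.

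The other 32 genes did not pass, with log2 fold changes from -0.29 to 0.21. Those closest to the threshold were all lower estimates. Cars, the cytosolic cysteine enzyme, read 8.84, 8.96 and 8.86 with PBS and 8.64, 8.61 and 8.54 with PJ34 (log2 fold change -0.29, SE 0.066, adjusted p = 0.0588 from limma). Both cysteine enzymes thus had separate groups in the same direction. The tyrosine enzyme Yars read 9.98, 10.08 and 10.05 with PBS and 9.79, 9.80 and 9.73 with PJ34 (-0.27, SE 0.062, adjusted p = 0.0626 from limma). The mitochondrial threonine enzyme Tars2 read 8.03, 8.14 and 8.17 against 7.90, 7.85 and 7.81 (-0.26, SE 0.066, adjusted p = 0.0766 from limma). In none of these 3 did the groups overlap, a separation toward lower values found in 17.2% of probe sets at or above the median level. The tryptophan enzyme Wars read 8.83, 8.99 and 8.99 with PBS and 8.70, 8.67 and 8.70 with PJ34 (-0.25, adjusted p = 0.103 from limma).

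Across the cytosolic enzymes the arrays themselves show how regular the lower values were. For 13 of the 19 genes all 3 PJ34 values lay below all 3 PBS values, and for no cytosolic gene did they all lie above. Such separation toward lower values occurred in 10.9% of all probe sets tested and in 17.2% of those at or above the median level, where all but 1 of the cytosolic genes lie. Separation toward higher values occurred in 12.6% and 19.3%. The 13 were Lars, Qars, Cars, Yars, Wars, the asparagine enzyme Nars, the isoleucine enzyme Iars, the serine enzyme Sars, Gars, the glutamate and proline enzyme Eprs, the phenylalanine subunit Farsb, the arginine enzyme Rars and the histidine enzyme Hars. For Rars and Hars the log2 fold changes were only -0.09 and -0.08. The groups overlapped for the methionine enzyme Mars1 (-0.21), for Tars (-0.14), for the lysine enzyme Kars (-0.08) and for the valine enzyme Vars (-0.03). They also overlapped for the 2 genes with estimates above 0, Tarsl2 (0.03) and Farsa (0.05). Farsa and Farsb encode the subunits of one enzyme, and their estimates of 0.05 (95% confidence interval -0.10 to 0.19) and -0.17 (-0.31 to -0.03) had opposite signs.

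Some single genes with high values show the same narrow steps, while Rars, with a 6-array mean of 10.50, changed by only -0.09. Sars read 11.04, 11.13 and 11.10 with PBS and 10.86, 10.91 and 10.87 with PJ34, a difference of -0.21 (SE 0.060, limma adjusted p = 0.113). Gars, which serves both compartments from 1 gene, read 11.17, 11.28 and 11.24 with PBS and 11.04, 11.04 and 11.01 with PJ34 (-0.20, SE 0.061). Nars read 10.58, 10.69 and 10.60 with PBS and 10.37, 10.46 and 10.33 with PJ34 (-0.24, SE 0.068). In Sars, Gars and Nars the lowest PBS array exceeded the highest PJ34 array, although none passed the test. Such separation occurred in 17.2% of probe sets at or above the median level. The 2 probe sets of Iars gave log2 fold changes of -0.22 (SE 0.075) and -0.20 (SE 0.062), and on both the groups were separate.

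**Figure D3:**
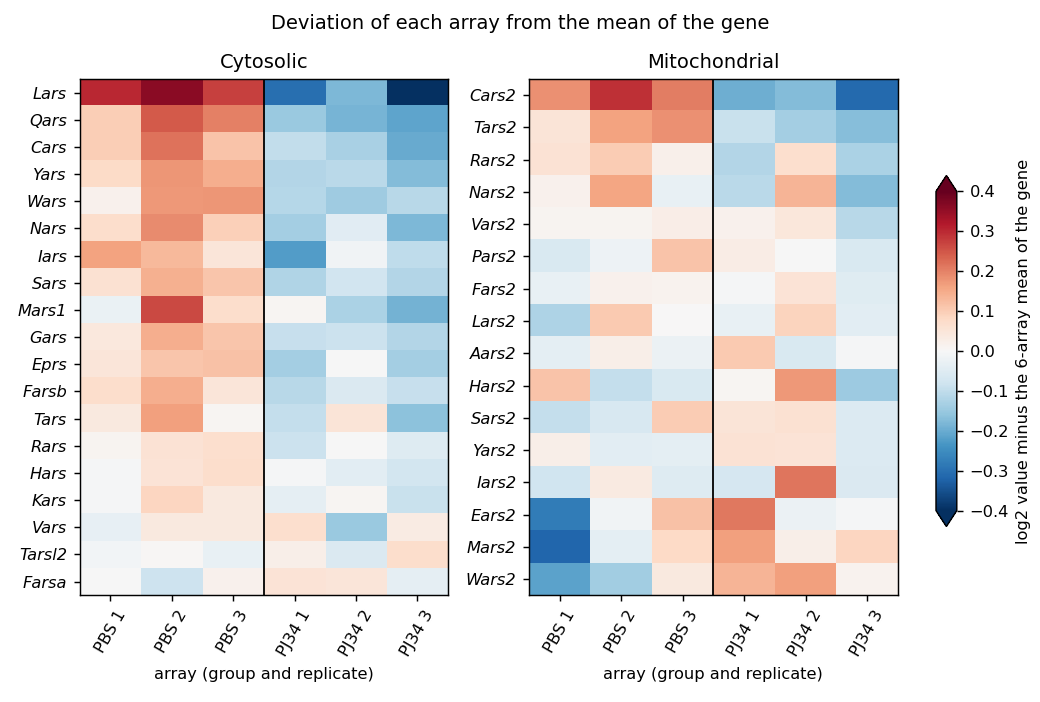
Deviation of the log2 value of each array from the 6-array mean of the gene (colour), for cytosolic and mitochondrial enzymes (rows, ordered by log2 fold change) on the 6 arrays (columns). Most cytosolic rows turn from red to blue between PBS and PJ34, while most mitochondrial rows have no such step.

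The position of single arrays differed within the groups. Averaged over the 19 cytosolic genes, the deviation from the mean of each gene was 0.0535, 0.138 and 0.0909 on PBS replicates 1, 2 and 3 and -0.0881, -0.0681 and -0.126 on PJ34 replicates 1, 2 and 3 (log2). All PBS arrays thus stood above all PJ34 arrays for the cytosolic set. For the 16 mitochondrial genes the averages were -0.049, 0.0307 and 0.0439 with PBS and 0.0107, 0.0429 and -0.0792 with PJ34, and the groups overlapped. PBS replicate 2 held the highest value of 11 of the 19 cytosolic genes, and PJ34 replicate 3 the lowest value of 11. PJ34 replicate 3 also held the lowest value of 8 mitochondrial genes and PBS replicate 1 that of 7. The part of these array positions in the calls was not tested beyond leaving out each array. The cytosolic median ran from -0.21 to -0.17 in those 6 fits. Within groups, the pooled SD had a median of 0.0574 for cytosolic and 0.0853 for mitochondrial genes, and it was highest for the mitochondrial glutamate enzyme Ears2 (0.17).

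The mitochondrial enzymes other than Cars2 and Tars2 had overlapping groups, 14 of 16 in all. Such separation toward lower values in 2 of 16 (12.5%) is close to the background of 17.2%. Mitochondrial probe sets had 6-array means from 4.82 (Pars2) to 8.20 (Iars2). Cytosolic means were higher, from 8.33 (Lars) to 11.25 (Iars), apart from Tarsl2 (3.17) and Farsa (6.72). The part of signal level in the difference between the compartments was not tested. Wars2 had the highest estimate, with 6.94, 7.02 and 7.20 on the PBS arrays and 7.29, 7.32 and 7.17 on the PJ34 arrays. One PJ34 value lay below the highest PBS value, and the log2 fold change of 0.21 (SE 0.083) did not pass (adjusted p = 0.245 from limma). The methionine enzyme Mars2 (0.18, SE 0.10) and Ears2 (0.12, SE 0.11) followed, both with a lone low value on PBS replicate 1 (6.45 and 4.89). The arginine enzyme Rars2 (-0.12) and the asparagine enzyme Nars2 (-0.10) had lower estimates. The other 9, namely Aars2, Fars2, Hars2, Iars2, Lars2, Pars2, Sars2, Vars2 and Yars2, lay between -0.03 and 0.06. Lars2, the mitochondrial leucine enzyme, read 6.96, 7.19 and 7.09 with PBS and 7.05, 7.17 and 7.04 with PJ34, and its estimate of 0.01 (95% confidence interval -0.17 to 0.19) fell to -0.00991 when each array was centred on its median.

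For 12 amino acids both a cytosolic and a mitochondrial enzyme were measured, so that their ratio could be followed on each array. In 8 of the 12 pairs the change of the cytosolic gene was the lower. In 7 of them the ratio of cytosolic to mitochondrial signal was lower on every PJ34 array than on any PBS array. Over all pairs of probe sets at or above the median level, such separation toward a lower ratio occurred in 19.8%. These 7 were the pairs for isoleucine, leucine, methionine, asparagine, serine, tryptophan and tyrosine. Intervals of the pairs, unlike those from limma, use only the spread of the pair's own ratio within groups. The difference was largest for leucine, at -0.63 on the log2 scale (95% confidence interval -0.83 to -0.44). It was -0.46 for tryptophan (-0.66 to -0.25) and -0.39 for methionine (-0.69 to -0.08). For asparagine it was -0.14, with an interval that includes 0 (-0.31 to 0.03). Cysteine was the reverse, with Cars2 lower than Cars and a difference of 0.17 (0.11 to 0.22). For histidine, arginine, threonine and valine the ratios overlapped, and the valine difference was 0.000657 (-0.29 to 0.29). With 3 arrays a side, the two-sided exact permutation test cannot give less than p = 0.1, the value of each of the 8 separate pairs (adjusted p = 0.15 over the 12 pairs), so that no pair could pass.

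**Figure D4:**
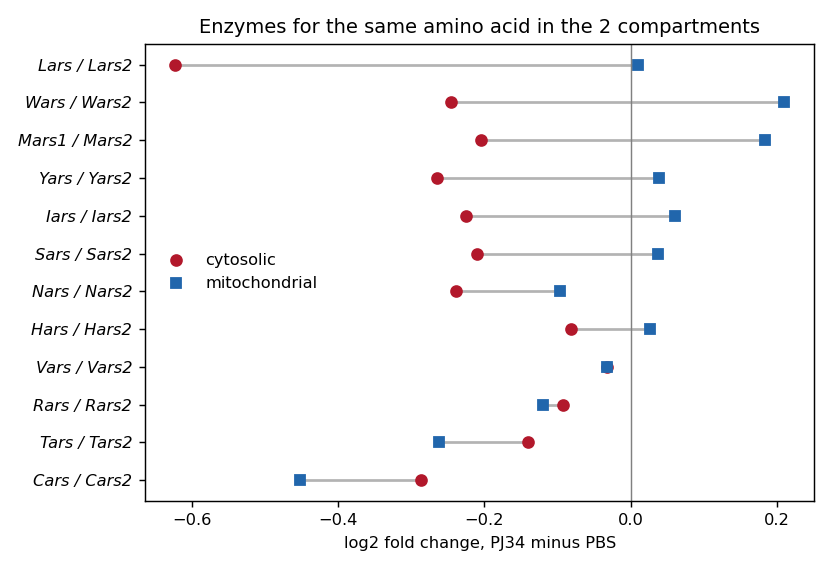
Horizontally, log2 fold change (PJ34 minus PBS) of the cytosolic (red circle) and mitochondrial (blue square) enzyme for each of 12 amino acids, joined by a line, n = 3 arrays per group. The leucine pair is widest apart (-0.62 and 0.01), the valine pair coincides, and the cysteine pair is reversed (-0.29 and -0.45).

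Subgroups of the cytosolic enzymes are described by counts only. The 7 measured members of the multisynthetase complex (Eprs, Iars, Kars, Lars, Mars1, Qars and Rars) had a median log2 fold change of -0.21, and both cytosolic genes that passed belong to it. The 12 free enzymes had a median of -0.19, so that the medians were close. Synthetases fall into classes I and II by the fold of their catalytic core. All 10 class I genes had estimates below 0 (median -0.24), as had 7 of the 9 class II genes (median -0.14). Eprs, which serves both glutamate and proline, was counted in class I only. Of all probe sets, 49.0% had estimates below 0. Enzymes generally known as ATF4 targets (Cars, Eprs, Gars, Iars, Lars, Mars1, Nars, Sars, Tars, Wars and Yars) had a median of -0.22 over 11 genes, with separate groups in 9. The other 8 cytosolic genes had a median of -0.08, with separate groups in 4, and Qars, which passed, is among these. Separation toward lower values occurred in 10.9% of all probe sets and in 17.2% of those at or above the median level. No difference between subgroups was tested. Gars and Tars, whose promoters hold the TGATGNAA core, had log2 fold changes of -0.20 and -0.14, neither of which passed.

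Among the partners of the synthetases, few genes moved. Of the 3 scaffold proteins of the complex, Aimp1 fell by 0.35 on the log2 scale (SE 0.068, adjusted p = 0.0348 from limma). It read 8.14, 8.08 and 8.14 with PBS and 7.81, 7.83 and 7.68 with PJ34. Aimp2 lay in the other direction, at 7.05, 7.08 and 7.11 with PBS and 7.34, 7.30 and 7.43 with PJ34, without passing (0.28, SE 0.064, adjusted p = 0.0601 from limma). Neither scaffold gene's groups overlapped, and the third, Eef1e1, was at 0.05. Of probe sets at or above the median level, 17.2% were separate toward lower and 19.3% toward higher values. Aimp1 passed in 1 of the 6 fits that left out 1 array, that without PJ34 replicate 2. None of 4 genes of editing and deacylation passed, nor any of 4 genes of tRNA export, 4 cytosolic elongation factors, 8 mitochondrial partners or 6 genes of selenocysteine tRNA. Over these 26 genes, limma's unadjusted p was below 0.05 for 4 lower and 3 higher estimates, where 7.74% of all probe sets were lower and 8.95% higher. Among them the tRNA exporter Xpot was at -0.33 (SE 0.082, adjusted p = 0.0742 from limma) and Pstk, the kinase of selenocysteine tRNA, at -0.31 (SE 0.093). Medians were 0.05 for the mitochondrial partners and -0.06 for the cytosolic elongation factors.

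Of the 19 measured genes in the list of uncharged tRNA sensing and ATF4, 8 fell and none rose in limma (11 lower and 1 higher at an unadjusted p below 0.05, with 7.74% and 8.95% of all probe sets), beside 1.35% of all probe sets lower at the adjusted threshold, and its median log2 fold change was -0.23. Atf4 itself read 9.56, 9.59 and 9.62 with PBS and 9.29, 9.25 and 9.27 with PJ34. It fell by 0.32 (SE 0.059, adjusted p = 0.0247 from limma), a step close to that of Qars. The others were the pseudokinase Trib3 (-1.11), the stress factors Nupr1 (-0.91) and Ddit3 (-0.78), the glutathione-degrading enzyme Chac1 (-0.91), the translation repressor Eif4ebp1 (-0.41), Sesn2 (-0.40), a leucine-binding inhibitor of mTORC1, and Cebpg (-0.34), a partner of ATF4 on DNA. Asns, asparagine synthetase, which is no tRNA enzyme, lay at -0.26 with separate groups and did not pass (adjusted p = 0.0555 from limma). Eif2ak4, which encodes GCN2, was at 0.09 (SE 0.083), its cofactor Gcn1 at 0.13, and Impact, an inhibitor of GCN2, at 0.28 (SE 0.078, adjusted p = 0.110 from limma). Trib3, Ddit3, Chac1 and Nupr1 passed in all 6 fits that left out 1 array, Eif4ebp1 and Sesn2 in 2, and Atf4 and Cebpg in 1, that without PJ34 replicate 2. Trib3, Nupr1, Chac1 and Ddit3 each had a larger log2 fold change than any synthetase. All 35 synthetases were compared on the same 6 arrays as these genes, so the lists are no independent views of one another.

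**Figure D5:**
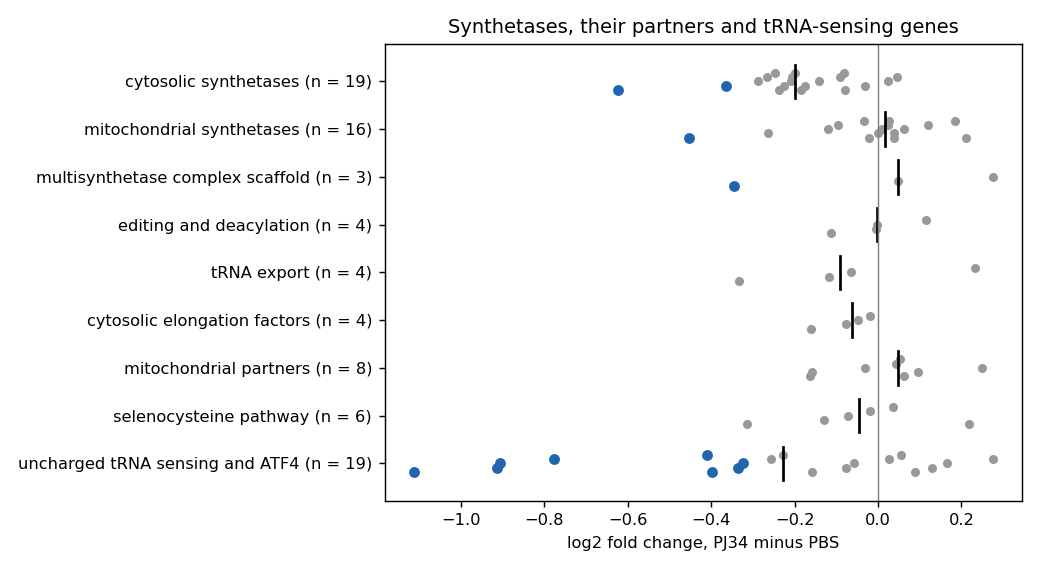
Each line of points is 1 of 9 gene lists, and the horizontal axis gives the log2 fold change, PJ34 minus PBS. Genes that fell at a limma adjusted p under 0.05 are blue and those that did not pass are grey. Black bars mark the medians, -0.20 for cytosolic synthetases, 0.02 for mitochondrial ones and -0.23 for uncharged tRNA sensing and ATF4.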

How the data were processed

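Total RNA of C1498 cells was measured on 6 Affymetrix Mouse Gene 1.0 ST arrays. The sample titles read drug for 3 and untreated for 3, here called the PJ34 and PBS groups. The authors used Affymetrix Expression Console 1.3.1 and RMA, per the submitters' processing notes, and deposited log2 expression values, 1 per probe set and array. RMA corrects background, equalises the distributions of the arrays and summarises the probes of a set. The values hold no detection calls and were used as deposited. Such summaries tend to compress large changes and keep an unknown share of background at low values. A genome build for the probes is not given in the sources used here.

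The gene table names 21789 of 35556 probe sets by 1 gene and 1621 by several. These and 2 probe sets that the paper lists by number, 23412 in all, were fitted with limma 3.58.1 in R 4.3.3 (lmFit, eBayes, no covariates), PJ34 minus PBS, with Benjamini-Hochberg adjustment over all of them and a threshold of 0.05. The fit was tested on simulated data with independent noise, which hold no shifts of whole arrays shared by many genes. Gene numbers matched 35 of 35 members to RefSeq genes of GRCm38.p6, the source of coordinates and promoters. Exact permutation tests used scipy 1.17.1. The number of arrays limits the precision.

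Members, subgroups and lists were chosen with earlier results of these data known, so no list is given a p. All synthetases are accounted for by name, and from the other lists every gene past the threshold and some that did not pass. Of 53 listed names of partner and pathway genes, 48 were measured. Alternatives were centring of arrays on their medians, an intensity trend with robust eBayes, omission of probe sets below the median level, other sets of probe sets tested, the mean of a gene's probe sets, the methods' t-test, a replicate block and omission of each array.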

Additional observations from a re-analysis of the deposited data

How the results depend on the processing

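With 3 arrays per group and changes mostly under 0.3 on the log2 scale, the number of calls depended on the fit, while directions of the cytosolic genes mostly did not. With an intensity trend and robust eBayes, 13 synthetases were lower, 11 of them cytosolic and 2 mitochondrial. Of the 48 partner and pathway genes, 13 were lower and 3 higher. In that fit 3.93% of all probe sets were lower and 4.31% higher. Without dim probe sets, 10 synthetases were lower, 8 cytosolic and 2 mitochondrial. Of the 47 partner and pathway genes in that fit, 12 were lower and 4 higher. The background there was 7.18% lower and 7.94% higher. With all deposited probe sets tested, 1 synthetase was lower, Lars, which is 1 cytosolic and 0 mitochondrial. In that fit 4 partner and pathway genes were lower, beside 0.214% of all probe sets. With the methods' t-test after adjustment, 0 synthetases were lower, 0 cytosolic and 0 mitochondrial, against 3 with limma. Its unadjusted p was below 0.05 for 12 cytosolic and 2 mitochondrial genes, all lower. The share of all probe sets at this unadjusted rule was not computed. After adjustment, 5 partner and pathway genes were lower, beside 0.278% of all probe sets. Leaving out 1 array gave 1 to 3 lower synthetases, 1 to 2 cytosolic and 0 to 1 mitochondrial. Those fits called 4 to 10 partner and pathway genes lower, beside 0.355% to 1.37% of all probe sets. No synthetase was higher in any setting, with unadjusted p below 0.05 for at most 2. In limma's first fit this held for 1, beside 8.95% of all probe sets. With the replicate number as a block in limma, 2 synthetases were lower, 1 of them cytosolic, as Qars no longer passed (adjusted p = 0.0679). There 5 partner and pathway genes were lower, beside 0.611% of all probe sets. The numbers were not taken as pairs. Deviations of same-numbered arrays correlated at -0.013, 0.13 and -0.00915, and PBS replicate 1 was closest to PJ34 replicate 3 (0.145). Cars2 (0.057) and Qars (0.0833) were not called with all deposited probe sets tested, nor Lars with the methods' t-test (0.0834).

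Of 489 values of single synthetases under the alternatives, 443 kept direction and side of the threshold, 17 gained a call, 13 lost one and 16 changed sign. The sign changes concerned 9 genes near 0. Lars2 was at -0.00991 with centred arrays and, with single arrays left out, between -0.0484 and 0.066. The ranges with single arrays left out were -0.0274 to 0.0244 for Fars2, -0.0584 to 0.029 for Pars2, -0.0547 to 0.105 for Hars2, -0.0204 to 0.062 for Aars2, -0.031 to 0.109 for Iars2, -0.0732 to 0.0342 for Vars, -0.00407 to 0.0601 for Tarsl2 and -0.0637 to 0.0158 for Vars2. Centring shifted every estimate by the same amount and changed no call. The cause of the other differences between fits was not tested.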
